A study of Mus musculus with 9 samples.

Results

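Tardbp and 6 further genes of RNA-binding proteins linked to amyotrophic lateral sclerosis (ALS) or to the stress granules studied in it were followed through the germ cells and somatic cells of the mouse testis: Taf15, Ewsr1, Matr3, Tia1, Tial1 and Atxn2. These 7 genes were taken by symbol from the 32285 genes counted. The data are single cell RNA-seq libraries of whole testis from 9 mice at postnatal day 24, each with a library of its own. The groups are Control (4 mice), NELF-B cKO (2) and TDP-43 cKO (3), and all are labelled C57BL/6 and were backcrossed to C57BL/6 J. A cKO mouse carried 1 floxed and 1 null allele of the targeted gene, Nelfb or Tardbp, together with Stra8-iCre, a Cre recombinase under a promoter that is active in male germ cells from the spermatogonial stage on. The null allele was therefore present in every cell of a cKO mouse, somatic cells included, and only the floxed allele depended on Cre. The controls were littermates or other mice, which the study calls wild type. The deposited name of control replicate 2 carries the word het, which no source explains.

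TDP-43, the protein of Tardbp, is a mainly nuclear protein that binds UG-rich RNA, represses cryptic exons and lowers the level of its own mRNA by binding near its 3′ end. It leaves the nucleus and forms inclusions in motor neurons of most ALS patients. In the testis it has been studied as a factor of meiotic germ cells. TAF15 and EWSR1 are related RNA-binding proteins that also act in transcription, and MATR3 is an RNA- and DNA-binding protein of the nuclear matrix. TIA1 and its paralog TIAL1 regulate splicing and translation and help to form stress granules. ATXN2 is a cytoplasmic partner of poly(A)-binding protein whose polyglutamine tracts of intermediate length raise the risk of ALS.

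The floxed segment of Tardbp is exon 3, which is shown because its loss defines the TDP-43 cKO. In the GENCODE M21 annotation of GRCm38, exon 3 of transcript Tardbp-202 lies at chr4:148621949-148622112 on the minus strand, is 164 bases long and wholly coding, and holds codons 80 to 134 of 414. The exon is printed in capitals between 15 bases of each neighbouring exon, as spliced.

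Tardbp-202 with exon 3: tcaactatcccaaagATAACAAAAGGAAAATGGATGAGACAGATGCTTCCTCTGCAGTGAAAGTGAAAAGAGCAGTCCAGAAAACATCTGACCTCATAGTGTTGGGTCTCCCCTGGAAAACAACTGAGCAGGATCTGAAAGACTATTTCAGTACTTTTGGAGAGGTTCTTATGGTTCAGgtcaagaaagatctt

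Tardbp-202 without exon 3: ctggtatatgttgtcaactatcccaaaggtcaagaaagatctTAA

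Since 164 leaves a remainder of 2 when divided by 3, joining exon 2 to exon 4 shifts the frame, and the first stop codon, in capitals on the line without exon 3, ends an open frame of 84 codons. This stop lies upstream of the last exon. Of 30 annotated Tardbp transcripts, 13 hold exon 3. The libraries count molecules at their 3′ end, in UMIs (unique molecular identifiers), so a Tardbp UMI does not tell whether its transcript held exon 3, and the level of Tardbp below is that of all its transcripts, shortened ones included.

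Cells were grouped into clusters without use of the 7 genes, and 22 of 32 clusters took the name of a cell type from marker genes. They held 27676 cells, of which 11036 were from control, 6560 from NELF-B cKO and 10080 from TDP-43 cKO mice. The libraries held 119203347 to 159407373 UMIs, and a library gave 2562 to 3889 named cells with a median of 6676 to 19220 UMIs. Another 17456 barcodes fell into clusters that were left out, among them 4916 of 1 cluster that came almost wholly from control replicate 2. These clusters had under 3 markers, a median under 2000 UMIs, over 80% of barcodes from 1 mouse, or genes of another cell type. Pairs of libraries shared at most 10 of the barcodes of named cells. The germ cells were spermatogonia (SG), round spermatids (RS) and, between them, the spermatocytes (SC), abbreviated by stage: pL for preleptotene, L for leptotene, Z for zygotene, P for pachytene and D for diplotene, and the somatic cells that could be tested were Sertoli, Leydig, interstitial and MHC class II immune cells. Myoid cells and macrophages were under 20 in several mice. A cluster of 153 barcodes carried the endothelial markers and was left out, since myoid markers were also raised in it. Levels are given in CPM, the UMIs of a gene per 1000000 UMIs of that cell type in that mouse. Mice are the replicates, and a level in CPM is the share a gene takes of the UMIs, not its amount per cell.

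In control mice Tardbp was highest in Z SC, at 236, 234, 272 and 264 CPM in the 4 mice, and the mean was 252 ± 19 (SD, n = 4). SG, in which Stra8-iCre begins to act, stood at 69.1, 63.7, 67.6 and 68.9 CPM. From SG the level rose 1.62 ± 0.18 times to pL SC, was 1.11 ± 0.058 times higher in L than in pL SC, and was 2.08 ± 0.37 times higher in Z than in L SC, with the same direction in 4 of 4 mice at each step. It was 130.3 ± 8.7 CPM in P SC, 63.1 ± 8.5 in D SC and 35.4 ± 3.3 in RS, so that RS held 14.1% of the level of Z SC. Among somatic cells, Sertoli cells had 108 ± 8.6 CPM, interstitial cells 79.6 ± 18, immune cells 76.7 ± 28 and Leydig cells 73.4 ± 12. The SG mean, 67.3 CPM, was below each of these, with ranges that overlapped for all but Sertoli cells. The study describes TDP-43 expression in controls as high in both SG and SC relative to other types, and its measure was not compared here. In the order of these 11 levels the ranges over mice were apart at 3 places, between Z and P SC, between Sertoli and interstitial cells and between D SC and RS, and neighbours elsewhere overlapped. These levels describe clusters of the same cells and carry no test.

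Taf15 peaked at another stage than Tardbp, and Ewsr1 had no single peak. Taf15 was highest in L SC, at 455, 699, 508 and 470 CPM, and control replicate 2 was the highest of the 4 mice. It was 145 ± 16 CPM in SG, 220 ± 40 in pL SC, 533 ± 113 in L SC and 312 ± 22 in Z SC, and the ranges of these 4 stages did not overlap. Beyond Z SC it was 129 ± 12 CPM in P SC and 69.8 ± 6.9 in D SC, and interstitial cells were lowest at 44.3 ± 17 CPM. Ewsr1 varied less: it was 305 ± 7.3 CPM in Z SC, 304 ± 26 in D SC, 281 ± 9.8 in P SC and 190 ± 20 in SG, and Leydig cells were lowest at 117 ± 7.9 CPM. In contrast to Tardbp and Taf15, Ewsr1 was still at 235 ± 21 CPM in RS, or 77.2% of its own highest level.

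Matr3 stayed near one level from pL to Z SC, with 279 ± 26 CPM in L SC, 266 ± 20 in Z SC and 260.5 ± 27 in pL SC, ranges that overlapped. It was 189 ± 12 CPM in SG and 96.2 ± 19 in RS, and 81.6 ± 6.6 in Leydig cells. The paralogs Tia1 and Tial1 were both lowest in RS, at 12.6 ± 3.1 and 23.8 ± 5.9 CPM. Tia1 was highest in L SC (75.1 ± 13) and Z SC (72.2 ± 15), while Tial1 was highest in pL SC (117 ± 8.8) and Z SC (106 ± 3.2). Atxn2 was the only one of the 7 whose highest mean was in a somatic type: Sertoli cells had 207, 269, 253 and 244 CPM and Z SC 205, 265, 223 and 213 CPM, which overlapped. Atxn2 was 82.4 ± 8.3 CPM in SG and 1.92 ± 0.095 times higher in Z than in L SC.

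**Figure D1:**
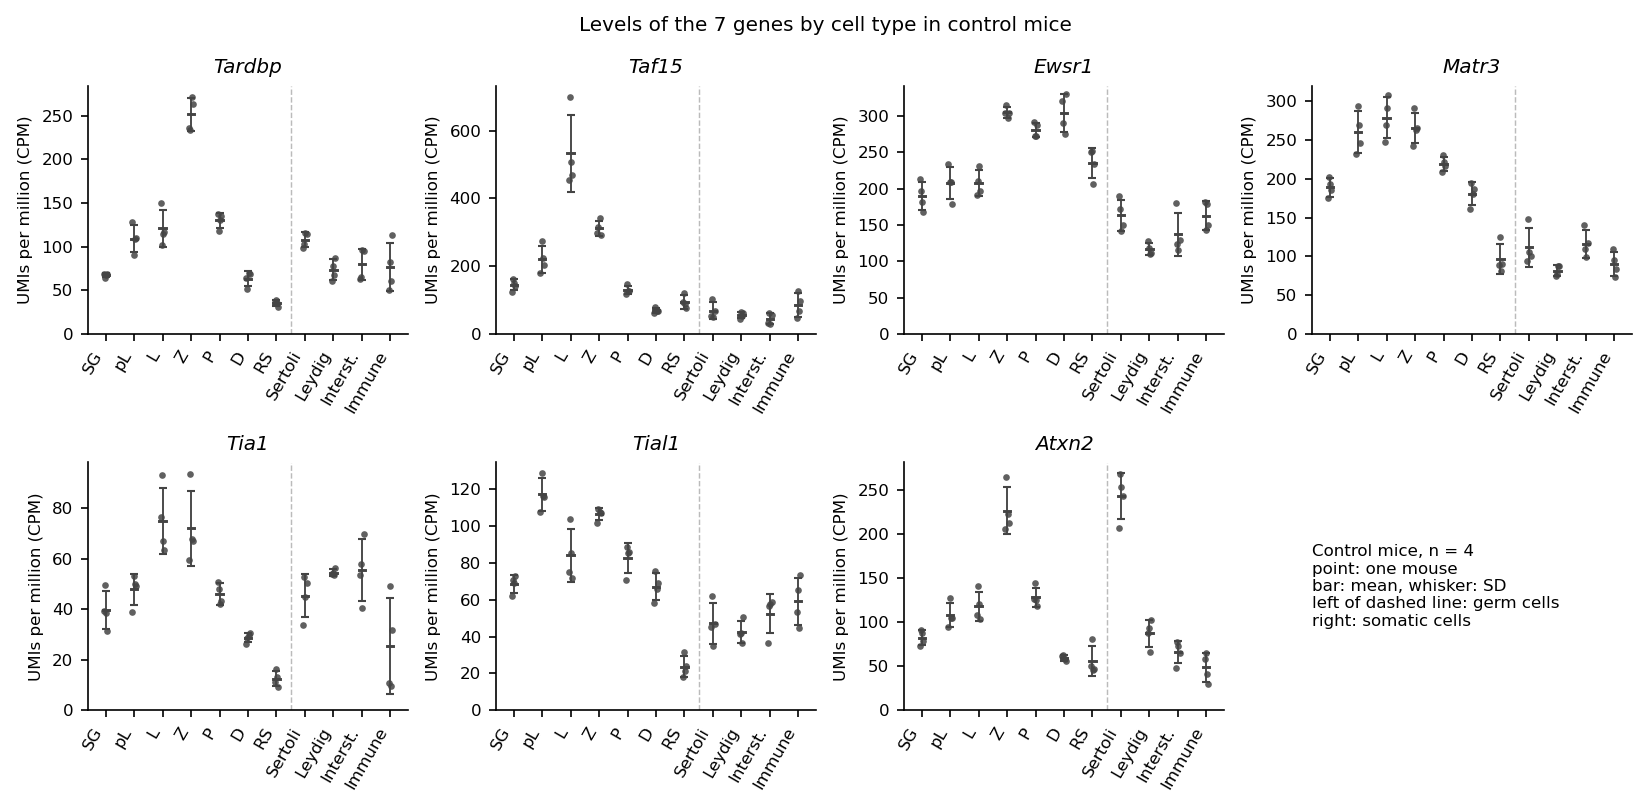
Level of each of the 7 genes (vertical axis, CPM, from 0) in 7 germ cell and 4 somatic cell types (horizontal axis) of 4 control mice; points are mice, bars means and whiskers the SD. Tardbp peaks in Z SC at 252 CPM, Taf15 in L SC at 533 CPM and Atxn2 in Sertoli cells at 243 CPM and Z SC at 226 CPM.

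Over the 11 cell types, the genes with the highest Pearson correlation to Tardbp, on log2(mean CPM + 1), were Ebag9 (r = 0.982), Mir17hg (0.955), Paip1 (0.951), Efcab14 (0.944) and Pja2 (0.938), out of 16185 genes. Paip1, which codes for a partner of poly(A)-binding protein, went from 45.0 CPM in SG to 182 in Z SC and 13.3 in RS. Of the other 6 genes, Tia1 ranked highest with r = 0.799 at place 277, Atxn2 had r = 0.791 and Tial1 0.776, whereas Matr3 had 0.629, Taf15 0.563 and Ewsr1 0.28. These 11 points share libraries and differ in UMIs per cell, so the values are descriptions.

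The first comparison, which cannot tell the null allele from deletion by Cre, asks: where was Tardbp lower in the TDP-43 cKO? In SG it was 30.7, 34.6 and 35.2 CPM, below the 63.7 to 69.1 CPM of the controls without overlap. This is 49.7% of the control mean, a log2 fold change of -0.96 (SE 0.076, 95% interval -1.14 to -0.79, adjusted p = 0.00827, edgeR quasi-likelihood test). Tardbp was the single gene called among 18535 tested in SG, or 0.0054% of them. Without control replicate 2, whose deposited name carries het, it was -1.02 (adjusted p = 0.0339). With 1 mouse left out, its fold change in SG stayed between -1.02 and -0.92, and the adjusted p rose to 0.0877 without control replicate 3, 0.0544 without control replicate 4, 0.102 without TDP-43 cKO replicate 2 and 0.116 without TDP-43 cKO replicate 3. Both larger SG clusters showed it: 63.1 to 70.2 CPM in controls against 23.2 to 31.2 in cluster 3, and 64.7 to 72.2 against 36.9 to 41.1 in cluster 8, which Gfra1, the receptor gene of undifferentiated SG, helps to mark and which held 27.3 to 32.7% of control and 33.0 to 49.3% of TDP-43 cKO SG.

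In pL, L and Z SC summed together, TDP-43 cKO mice had 45.8, 84.5 and 92.5 CPM of Tardbp and control mice 179, 184, 187 and 212. Replicate 1 was the lowest of the cKO mice, and no cKO mouse reached a control. The cKO mean was 39.0% of the control mean, a log2 fold change of -1.31 (SE 0.23, 95% interval -1.82 to -0.80, adjusted p = 0.015, edgeR), where 11.9% of 16866 genes were called. Each stage taken alone gave a similar size: -1.19 in pL SC (adjusted p = 0.0351, 0.0219% of genes called), -1.22 in L SC (adjusted p = 0.0379, 6.54% called) and -1.31 in Z SC (adjusted p = 0.00091, 19.9% called), all by edgeR. The Z SC value joins 2 clusters, described below, whose shares differed between the genotypes. In the cluster that held most control Z SC, the means were 168 CPM in the TDP-43 cKO and 251 in controls. Summed over SG and all 3 stages the log2 fold change was -1.52 (adjusted p = 0.0343), beyond the value of either part. In this sum pL, L and Z SC, where Tardbp is higher than in SG, gave 47.2 to 63.5% of the UMIs in control and 24.2 to 35.2% in TDP-43 cKO mice.

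Z SC held 2 clusters, and the genotypes filled them differently. Cluster 6, led by Rad51ap2, Meiob and Sycp3, held 94.3 to 100% of the Z SC of control mice and 23.5 to 46.6% of those of TDP-43 cKO mice. Within it Tardbp was 235 to 271 CPM in controls, 230 and 258 in NELF-B cKO and 132, 169 and 203 in TDP-43 cKO mice. Cluster 18, with Zfy2, Ccnb3 and Zfy1 among its leading genes, held 53.4 to 76.5% of the TDP-43 cKO Z SC, and there Tardbp was 55.3, 61.4 and 61.7 CPM in TDP-43 cKO against 180 and 187 in NELF-B cKO mice. Control mice had too few cells of cluster 18 for a level. TDP-43 cKO mice were thus below control and NELF-B cKO mice in cluster 6 and below NELF-B cKO mice in cluster 18, where there was no control level. How far this mix contributed to the sums was not tested. A fit on equal numbers of cells of each cluster held 3 clusters and 224 cells per mouse, and left out cluster 18. In it Tardbp in pL, L and Z SC had a log2 fold change of -1.13 with an adjusted p of 0.0668 by edgeR.

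Single cells gave the same order at equal depth. With each cell thinned to 2000 UMIs, 9.18 to 13.2% of control SG and 4.53 to 7.65% of TDP-43 cKO SG held a Tardbp UMI, and in Z SC 31.8 to 42.5% and 8.82 to 18.5%. Unthinned, the shares were 60.8 to 71.3% and 49.5 to 57.0% in SG and 84.9 to 88.5% and 56.1 to 68.6% in Z SC, with deeper cells in the cKO (medians of 22528 to 36333 UMIs against 15974 to 24438 in SG). Thinning left out 61 control and 68 TDP-43 cKO SG under 2000 UMIs. No cell type here lacks Tardbp, so no background share could be read from one. RNA free in the droplets carried 79.2 to 141 CPM of Tardbp in control and 55.6 to 94.2 in TDP-43 cKO libraries, and an estimated 14.7 to 23.9% of control and 4.94 to 9.44% of TDP-43 cKO SG UMIs came from it. With this RNA subtracted, the Tardbp level of control Z SC stood 5.04 times above that of control SG, against 3.74 times before.

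**Figure D2:**
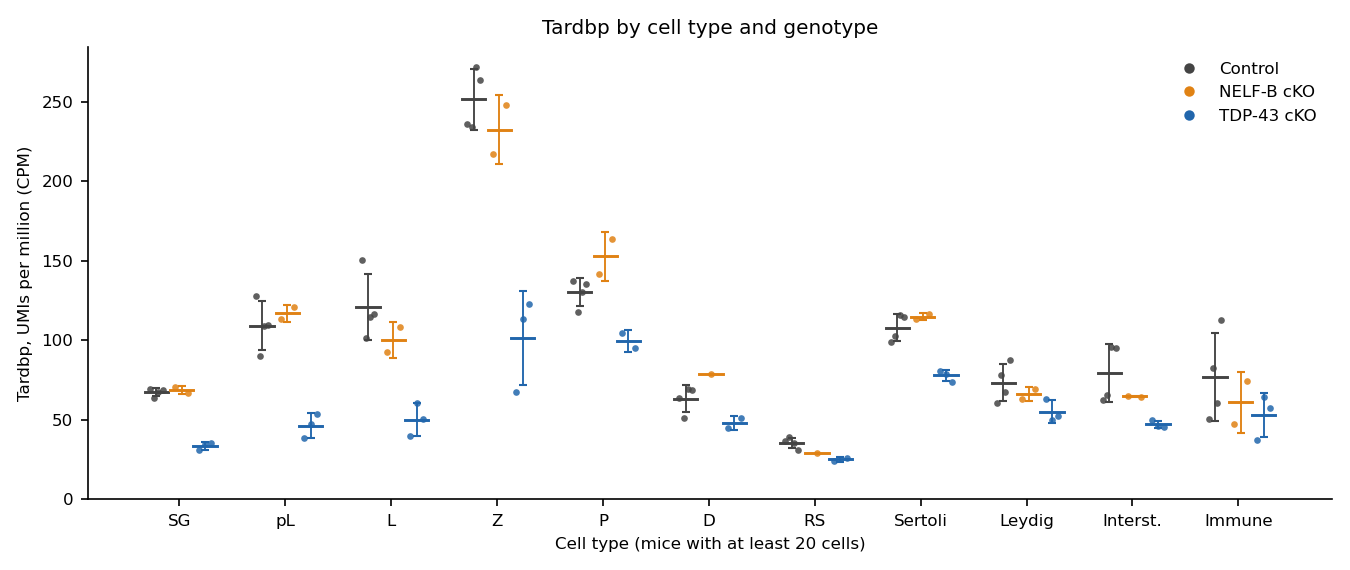
Tardbp (vertical axis, CPM, from 0) by cell type (horizontal axis) in control, NELF-B cKO and TDP-43 cKO mice with at least 20 cells of the type; points are mice, bars means and whiskers the SD where a group has over 1 mouse. In SG the TDP-43 cKO mice lie at 30.7 to 35.2 CPM and the control mice at 63.7 to 69.1. In P SC the TDP-43 cKO mice lie at 104 and 94.9 CPM and the control mice at 118 to 137. The difference between the groups was not compared between these stages by a test.

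In the later germ cells, whose cKO values rest on the 2 mice with at least 20 cells (replicates 2 and 3), Tardbp did not pass the test. In P SC these 2 mice had 104 and 94.9 CPM against 118 to 137 in controls (log2 fold change -0.38, adjusted p = 0.329, edgeR), in D SC 44.7 and 50.8 against 50.8 to 69.3 (-0.47, adjusted p = 0.158), and in RS 23.9 and 26.1 against 31.1 to 39.0 (-0.61, adjusted p = 0.464). All of these cKO mice had values under the control mean. Without control replicate 2 the difference in D SC passed (-0.56, adjusted p = 0.0475). Called genes made up 0.0865% of those tested in P SC, 1.61% in D SC and 0% in RS.

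Somatic cells of TDP-43 cKO mice carry the null allele, but Stra8-iCre is not expected to act in them, and of the 4 types tested Tardbp was called lower in Sertoli cells alone by edgeR. Sertoli cells, the nurse cells of the seminiferous tubule, had 80.8, 79.0 and 73.7 CPM in the cKO and 98.7, 103, 116 and 115 in controls, with no overlap. This is 72.1% of the control mean, a log2 fold change of -0.46 (SE 0.11, 95% interval -0.70 to -0.21, adjusted p = 0.0465, edgeR, 7.87% of genes called). The call was close to its threshold and was kept in 2 of the 9 fits that left out a mouse, those without NELF-B cKO replicate 1 or 2. Leaving out any single control or TDP-43 cKO mouse gave an adjusted p between 0.0771 and 0.137, with fold changes of -0.50 to -0.39. The fold change was -0.48 on equal numbers of cells of clusters 10 and 14, and -0.44 with free RNA subtracted. Both were again without a call (adjusted p = 0.105 and 0.122, edgeR). The fit on equal numbers left out cluster 24. Sertoli cells of the cKO were also more often of the deeply sequenced cluster 14 (44.5 to 64.1% against 9.80 to 31.6% in controls), and an estimated 18.7 to 51.8% of their UMIs came from free RNA against 10.0 to 24.4%. Within cluster 14 the ranges were again apart, at 74.9 to 82.3 CPM in the cKO and 96.8 to 120 in controls, and in the shallow cluster 10 they were 46.8 to 63.8 and 79.3 to 120 CPM. In cluster 24, the third of Sertoli cells, they overlapped, at 75.1 to 114 CPM in the cKO and 94.1 to 149 in controls.

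Interstitial cells had 49.5, 46.2 and 45.3 CPM of Tardbp in the cKO and 62.4 to 95.7 in controls (log2 fold change -0.71, 95% interval -1.13 to -0.30, adjusted p = 0.0928, edgeR, with 0% of genes called), and DESeq2 gave an adjusted p of 0.0218. Without NELF-B cKO replicate 1 or 2, edgeR gave adjusted p values of 0.0455 and 0.0446 there. Leydig cells had 63.0, 49.7 and 52.6 CPM against 60.4 to 87.4 (-0.34, adjusted p = 0.262, 0.0595% of genes called), and immune cells 37.1, 64.3 and 57.3 against 50.7 to 113 (-0.57, adjusted p = 0.402, 4.73% called). The last 2 types overlapped with the controls.

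The Tardbp decrease in germ cells was then set against that in Sertoli cells of the same mice. The effect in the summed SG, pL, L and Z SC was lower than that in Sertoli cells by a log2 difference of -1.04 (SE 0.20, adjusted p = 0.0636, edgeR with mouse as a block), which missed the threshold at which 0.0765% of 20928 genes passed. It rests on the sum whose mix of SG and SC differed between the genotypes, and SG (-0.96) and pL, L and Z SC (-1.31) were not each tested against Sertoli cells (-0.46). With RLE factors the difference was -1.12 and passed with an adjusted p of 0.0461. On equal numbers of cells of each cluster it was -0.58 (adjusted p = 0.354), with clusters 18 (Z SC), 22 (SG) and 24 (Sertoli cells) left out. Whether the germ cell decrease exceeded the Sertoli cell decrease thus depended on the fit. The difference also passed in 5 of the 9 fits that left out a mouse, those without control replicate 1, 2 or 4 or NELF-B cKO replicate 1 or 2, with adjusted p values of 0.00424 to 0.0397.

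Did other genes of the group move where Tardbp was lower? Tardbp UMIs were still counted in germ cells of the TDP-43 cKO, so its full absence was not tested. In SG none of the other 6 was called in the TDP-43 cKO, by edgeR or by DESeq2, and none had an unadjusted p under 0.05, although 8.64% of all genes were called by DESeq2. Their log2 fold changes ran from -0.16 for Atxn2 to 0.12 for Taf15, with a median of 0.053 beside 0.0044 over all genes. Taken gene by gene, the 95% intervals ran from -0.43 to 0.35, or 0.745 to 1.28 times the control level, and are no joint bound. None had all cKO mice above or all below all controls, where 8.95% and 13.6% of all genes did. Taf15, for example, was 137, 159 and 162 CPM in the cKO and 124, 163, 149 and 142 in controls, and Atxn2 65.9, 70.6 and 79.5 against 72.9 to 91.1.

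**Figure D3:**
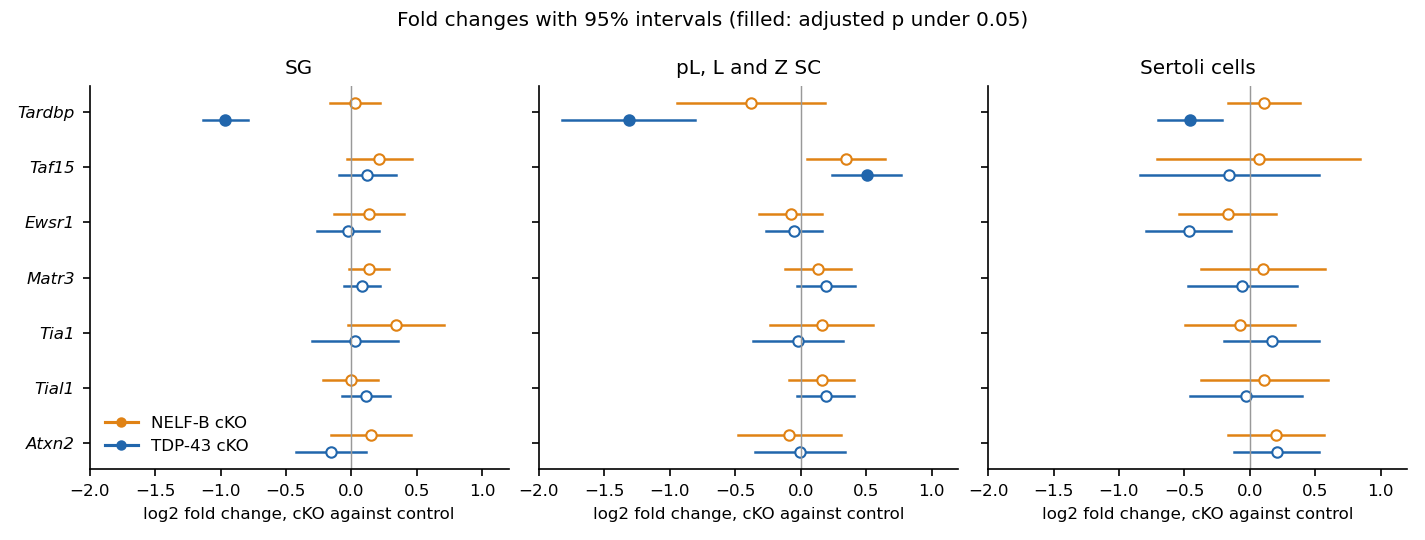
Log2 fold change of the 7 genes (rows) against control in SG, pL, L and Z SC and Sertoli cells for the NELF-B cKO and the TDP-43 cKO; points are edgeR estimates, lines 95% intervals and filled points have an adjusted p under 0.05. The filled points are Tardbp in all 3 panels, at -0.96, -1.31 and -0.46, and Taf15 in pL, L and Z SC at 0.50.

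Among the pL, L and Z SC, Taf15 was in the TDP-43 cKO the only one of the other 6 to be called. It was 453, 397 and 429 CPM in the cKO and 266, 351, 330 and 293 in controls, so every cKO mouse lay above every control. The log2 fold change was 0.50 (SE 0.12, 95% interval 0.24 to 0.77, adjusted p = 0.0309, edgeR), and DESeq2 gave an adjusted p of 0.00167, with 18% of all genes called. Matr3 (298, 287 and 301 CPM against 239 to 289.5) and Tial1 (116, 120 and 117 against 101 to 114) did not pass, with fold changes of 0.19 and 0.19 and adjusted p values of 0.228 and 0.226. Ewsr1, Tia1 and Atxn2 had log2 fold changes of -0.052, -0.019 and -0.0066. The median of the 6 was 0.092 beside 0.0052 over all genes. On TMM-scaled CPM, the scale of these counts over all genes, ranges lay wholly above the controls for 3 of the 6 (Taf15, Matr3 and Tial1), which held for 14.7% of all genes, and wholly below for none, against 17.7% of all genes. On the unscaled CPM printed here Matr3 overlapped with the controls, which leaves 2. In the NELF-B cKO, given below, Taf15, Matr3 and Tial1 also lay above all controls on the unscaled CPM.

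Taf15 lies on chromosome 11 (GRCm38, 83473086 to 83506743, plus strand) and Ewsr1 on the same chromosome at 5069689 to 5099266 on the minus strand. Matr3 shares its strand and part of its length with Gm28285, which the deposited counts hold apart: over the 9 mice pL, L and Z SC held 29 UMIs of Gm28285 and 26269 of Matr3, and how many molecules could be given to neither gene was not measured. Masp2, which overlaps the 3′ end of Tardbp on the other strand, had 125 UMIs in these cells.

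Taf15 peaks in L SC in control mice, and L SC made up 15.9 to 22.5% of the pL, L and Z SC of control mice and 21.9 to 40.3% of those of TDP-43 cKO mice. On equal numbers of cells of each cluster, with cluster 18 left out, the log2 fold change of Taf15 was 0.53, with an adjusted p of 0.0721 by edgeR. Within stages the log2 fold changes were 0.47 in pL SC, 0.41 in L SC and 0.32 in Z SC, with adjusted p values of 0.07, 0.0901 and 0.0626. In pL SC the cKO mice had 280, 306 and 297 CPM and the controls 180, 274, 225 and 203. In L SC they had 664, 644 and 727 against 455 to 699, which overlapped. In Z SC they had 433, 364 and 389 against 291 to 341, and within Z cluster 6 they had 335 to 512 against 290 to 341, which overlapped. Summed with SG, Taf15 was at 0.022 with an adjusted p of 0.903, and edgeR called none of the 6, where 14.7% of genes were called. In that sum DESeq2, with 24.1% of genes called, had Atxn2 (-0.37, adjusted p = 0.0306) and Ewsr1 (-0.20, adjusted p = 0.0408) lower in the TDP-43 cKO, Ewsr1 at 195, 201 and 213 CPM against 219 to 240. The part in these 2 calls of the smaller share of pL, L and Z SC in the TDP-43 cKO sum was not tested. The free RNA of control libraries held 65.7 to 132 CPM of Taf15, well under its level in these cells, and an estimated 19.7 to 29.3% of their UMIs in controls against 5.80 to 12.5% in the cKO came from free RNA. With that RNA subtracted, the Taf15 fold change was 0.35 (adjusted p = 0.148). When single mice were left out it was 0.42 to 0.58, and the call was kept in 3 of 9 fits, those without control replicate 2 or NELF-B cKO replicate 1 or 2, with adjusted p values of 0.0595 to 0.0812 in the others.

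**Figure D4:**
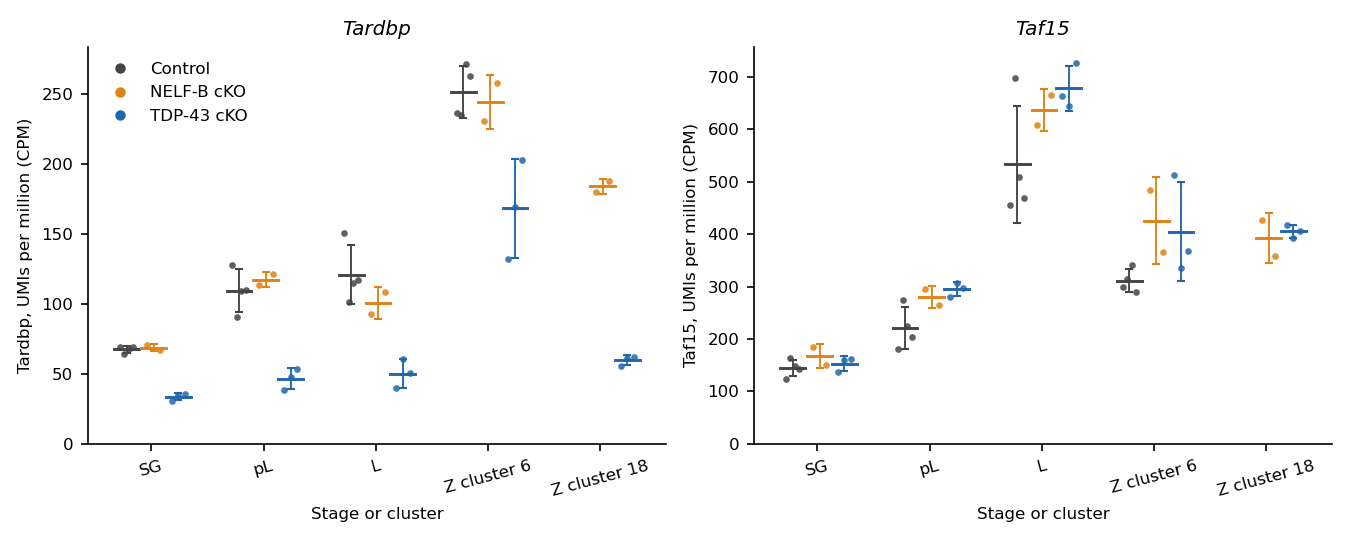
Tardbp (left) and Taf15 (right; vertical axes, CPM, from 0) in SG, pL SC, L SC and the 2 clusters of Z SC (horizontal axis) by genotype; points are mice with at least 20 cells, bars means and whiskers the SD. In Z cluster 18 the TDP-43 cKO mice have 55.3 to 61.7 CPM of Tardbp and the NELF-B cKO mice 180 and 187, and in cluster 6 Taf15 is 335 to 512 CPM in the TDP-43 cKO and 290 to 341 in controls.

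In Sertoli cells none of the other 6 was called by edgeR in the TDP-43 cKO. Ewsr1 came nearest, at 121, 117 and 111 CPM against 190, 172, 141 and 150 in controls, again with no overlap. Its log2 fold change was -0.47 (SE 0.14, adjusted p = 0.0652, edgeR), close to that of Tardbp in the same cells, and -0.85 (adjusted p = 0.0866) with free RNA subtracted. DESeq2 called it with an adjusted p of 0.0183, along with 22.6% of all genes. It also passed without NELF-B cKO replicate 1 (adjusted p = 0.0288) or 2 (0.0297). All cKO mice lay below all controls for 1 of the 6, against 21.9% of all genes, and above for none, against 17.7%. Ewsr1 was 96.1 to 147 CPM in the cKO and 152 to 216 in controls in the shallow cluster 10, and 102 to 121 against 119 to 149 in the deep cluster 14. In cluster 24 it was 194 to 249 CPM in the cKO and 202.3 to 266 in controls, with means of 229 and 231. In all the remaining types, P, D, RS, Leydig, interstitial and immune cells, none of the 6 was called, where 0 to 4.73% of all genes were called.

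The NELF-B cKO served as a second germ cell deletion in which Tardbp is not targeted. In SG, Tardbp was 70.4 and 66.8 CPM in these mice, inside or just above the control range of 63.7 to 69.1 (log2 fold change 0.03, 95% interval -0.16 to 0.22, adjusted p = 0.893, edgeR). None of the 7 was called there by edgeR or by DESeq2, and none had an unadjusted p under 0.05, where edgeR called 0.0216% and DESeq2 2.26% of 18535 genes. The largest fold change was that of Tia1, at 55.9 and 45.5 CPM against 31.5 to 49.8 (0.34, adjusted p = 0.402).

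In the NELF-B cKO none of the 7 was called in pL, L and Z SC either, by edgeR (0.00593% of genes called) or DESeq2 (7.18%). Only 1, Taf15, had an unadjusted p under 0.05, a cut whose share over all genes is not given here. Taf15 was 434 and 381 CPM, above the control range of 266 to 351, with a log2 fold change of 0.35 (95% interval 0.046 to 0.64, adjusted p = 0.196, edgeR). On the unscaled CPM, Matr3 (310 and 293 against 239 to 289.5) and Tial1 (116 and 129 against 101 to 114) also lay above all controls. The share of all genes above all controls in this sum is not given here. Tardbp was 128 and 173 CPM against 179 to 212 (-0.38, 95% interval -0.94 to 0.18, adjusted p = 0.413), and its value was -0.042 on equal numbers of cells of each cluster, without cluster 18. It was -0.14 without NELF-B cKO replicate 1 and -0.67 without NELF-B cKO replicate 2. In pL SC alone, Tia1 (72.9 and 67.4 CPM against 39.1 to 53.2; 0.56, adjusted p = 0.125) and Atxn2 (141 and 145 against 94.8 to 127; 0.41, adjusted p = 0.164) lay above all controls without passing the test, where 0.0438% of genes were called and 11.8% lay above all controls on TMM-scaled CPM. On the unscaled CPM Matr3 did so too, at 299 and 308 against 232 to 294 (0.23, adjusted p = 0.369). Of L SC and Z SC genes, 2.87% and 2.37% were called, with no gene of the 7 among them. On the unscaled CPM, Matr3 (343 and 320 against 248 to 308) and Ewsr1 (251 and 244 against 192 to 232) lay above all controls in L SC. So did Taf15 in Z SC (469 and 365 against 291 to 341). In P SC so did Tardbp (142 and 164 against 118 to 137), Taf15 (150.3 and 150.4 against 117 to 146) and Matr3 (246 and 236 against 208 to 231). The shares of all genes above all controls in L, Z and P SC are not given here, so these overlaps carry no comparison with all genes. None of the 7 lay below all controls in pL, L, Z or P SC taken alone. In the sum of pL, L and Z SC Tardbp did, at the 128 and 173 CPM given above. Summed with SG as well, Tardbp was 96.5 and 102 CPM against 120 to 160 (-0.49, adjusted p = 0.198, edgeR), also below all controls. In that sum pL, L and Z SC gave 33.3 to 45.6% of the UMIs in NELF-B cKO and 47.2 to 63.5% in control mice. The part of this mix was not tested. The difference of the Tardbp effect between germ and Sertoli cells was -0.51 (adjusted p = 0.495), where 0.00956% of genes passed. In P SC (0.473% of genes called), Sertoli, Leydig, interstitial and immune cells (0% called in each) none of the 7 was called. D SC and RS of the NELF-B cKO were not tested, since replicate 2 had under 20 cells of each.

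Genes that share the pathway or the disease were counted from 3 lists: 7 other genes of ALS-linked RNA-binding proteins (such as Hnrnpa1), of which 6 passed the filter on low counts, 16 other ALS genes (such as Sod1 and C9orf72) and 15 stress granule genes (such as G3bp1). In SG none of these was called in either cKO, where 0.0054% and 0.0216% of all genes were called in the TDP-43 and the NELF-B cKO. Among TDP-43 cKO pL, L and Z SC none of the 6 RNA-binding protein genes, 1 of the 16 other ALS genes and 2 of the 15 stress granule genes were called, all higher, where 11.9% of all genes were called, and the medians of the lists were -0.020, 0.10 and 0.11 beside 0.0052 over all genes. In the NELF-B cKO none was called.

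The 3 called genes were Fmr1, Ddx3x and Ubqln2. Fmr1 codes for FMRP, an RNA-binding repressor of translation, and was 426, 394 and 452 CPM in TDP-43 cKO pL, L and Z SC against 176 to 251 in controls (log2 fold change 1.04, SE 0.12, adjusted p = 0.00291, edgeR). Ddx3x, an RNA helicase gene, was 33.0, 42.2 and 47.6 CPM against 8.29 to 17.0 (1.77, SE 0.23, adjusted p = 0.00381). Ubqln2, the gene of a proteasome shuttle factor, was between 12.8 and 13 CPM in all 3 mice against 7.42 to 9.55 (0.67, SE 0.16, adjusted p = 0.031). The first 2 calls were kept in 9 of 9 fits that left out a mouse, and that of Ubqln2 in 2, those without a NELF-B cKO mouse (without any of the other 7 mice the adjusted p was 0.0519 to 0.0832). Cluster 18 held 53.4 to 76.5% of the Z SC of TDP-43 cKO and 0 to 5.72% of those of control mice. The 3 calls are not given here within single clusters, and the part of this mix in them was not tested. All 3 genes lie on the X chromosome and are all the X-linked genes of the 3 lists, while none of the 34 autosomal list genes tested was called, a split noticed after the calls. Of all genes tested in these cells, 40.2% of 639 X-linked and 10.7% of 16182 autosomal genes were called, and 39% and 2.64% were called higher. In the NELF-B cKO, where none passed, Fmr1 was 374 and 350 CPM, Ddx3x 27.5 and 31.4, and Ubqln2 17.5 and 14.6, each above its control range. None of the 7 genes studied here is X-linked. In TDP-43 cKO Sertoli cells 1 list gene was called, Tuba4a, named here after its value was seen (1.11, adjusted p = 0.0465, edgeR), where 7.87% of all genes were called. Without any 1 of the control or TDP-43 cKO mice the adjusted p of Tuba4a was 0.0747 to 0.139.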

How the data were processed

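The deposited values of the 9 libraries are raw UMI counts, 1 matrix of genes by barcodes per mouse, from 10x 3′ libraries that Cell Ranger aligned to mm10. No cells had been chosen and nothing had been normalized. The authors demultiplexed the reads with Cell Ranger 6.1.1 and mapped them with 7.0.0, although the matrix headers carry version 4. Seurat 4.2.0 and DESeq2 1.36 are also named in the submitters' processing notes. The 7 genes, their companion lists and the tests were chosen with earlier results of these data known.

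Barcodes were kept above 1000 genes and below 10% mitochondrial UMIs and were clustered on 3000 genes without the 7 (40 components, 20 neighbours, leidenalg 0.10.2, resolution 0.8, seed 7), and a cluster was named from at least 3 markers 2-fold above the other clusters. No doublet caller was run, and doublets were not removed. UMIs were summed per mouse and cell type over all cells, including those cKO germ cells that hold UMIs of the deleted gene, which the study left out. Leaving them out would choose cells on Tardbp itself. Mice with under 20 cells of a type were left out of its fit, so that the TDP-43 cKO was represented by 2 mice in P SC, D SC and RS. Sums were fitted with edgeR 4.0.16 in R 4.3.3 (filterByExpr, TMM, glmQLFit, glmQLFTest) with all 9 mice, and genes were called at a Benjamini-Hochberg adjusted p under 0.05 over all genes tested. The SE is the fold change divided by the root of its F. DESeq2 1.42.0, RLE factors, no filter, no composition factors, equal cells per cluster, resolution 1.2, subtraction of free RNA (barcodes with under 100 UMIs), a replicate block and leaving out each mouse were alternatives. Equal cells per cluster left out clusters with too few cells in some mice, among them 18 (Z SC), 22 (SG) and 24 (Sertoli cells). The fits for SG and for pL, L and Z SC were also run on simulated counts with known changes, whose outcome is not given here. Those counts followed the spread that the model itself fits. They held no difference in cluster mix or free RNA between the groups, so the effect of these was not tested.

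Genes named are the 7, at most 4 called genes per companion list and contrast with the lowest p in SG or in pL, L and Z SC, and the 5 genes most correlated with Tardbp over the 11 cell types. Depth is given as UMIs per library, and counts of UMIs limit precision by counting error only. Whether mice of one group came from separate litters is not given. RNA-seq of sorted cells and PRO-seq were not analysed here.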

Additional observations from a re-analysis of the deposited data

Results flagged for a closer look

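In control mice 77 groups of 4 values, 7 genes in 11 cell types, were screened for a mouse far from the other 3, and 2 were found, fewer than the 3.85 that chance gives at about 1 in 20 groups. Tial1 in interstitial cells was 36.4 CPM in control replicate 1 and 56.9 to 58.7 CPM in the other 3 mice. Atxn2 in RS was 81.2 CPM in control replicate 2 and 45.8 to 50.6 CPM in the others. Neither cell type carries a call of these genes.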

How the results depend on the processing

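Of 44 fold changes recomputed under 860 alternatives, 73 values changed sign, in 28 results, none of them called in either fit and none above 0.38 in size in the reported fit. For Tardbp in SG the log2 fold change stayed at -1.02 to -0.94 under the settings on SG alone other than leaving out a mouse or cells with a Tardbp UMI. Replicate numbers did not pair the mice: same-numbered control and TDP-43 cKO mice had correlated deviations of -0.168 to 0.00096 in SG and of -0.13 to -0.063 in pL, L and Z SC. With the number as a replicate block, Tardbp was -0.96 in SG (adjusted p = 0.343), -1.30 in pL, L and Z SC (adjusted p = 0.0702) and -0.43 in Sertoli cells (adjusted p = 0.204), and Taf15 in pL, L and Z SC was 0.49 (adjusted p = 0.149), each without a call, and the number of the other 6 genes called in pL, L and Z SC was 0 against 1. Of the list genes, the block kept the call of Ddx3x (adjusted p = 0.0405) and not those of Fmr1 (adjusted p = 0.0604), Ubqln2 (adjusted p = 0.154) and Tuba4a (adjusted p = 0.201). All these p values are from edgeR.

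With equal cells per cluster, Tardbp was -1.13 in pL, L and Z SC and -0.48 in Sertoli cells, without a call. In Sertoli cells it also lost its call with no filter (-0.40), at resolution 1.2 (-0.42) and with free RNA subtracted (-0.44). Leaving out single mice gave -1.02 to -0.92 in SG, and -0.50 to -0.39 in Sertoli cells. The number of the other 6 called in pL, L and Z SC fell from 1 to 0 with equal cells, free RNA subtracted or stages pooled (by edgeR), and was 0 to 1 when a mouse was left out. In the remaining types none of the 7 genes was called, but 1, Tardbp, was with DESeq2 (in interstitial cells), and 0 to 1, again Tardbp, without a mouse. The germ cell minus Sertoli cell difference of Tardbp, -1.04, was called with RLE factors (-1.12), no filter (-1.48), DESeq2 (-1.12) and resolution 1.2 (-1.47), and was -1.50 to -0.99 without a mouse, with a call in 5 of 9 such fits. Leaving out cKO germ cells with a Tardbp UMI, as the study did, sets Tardbp to 0 in them by construction, and the fitted values (-12.3 in SG, -13.5 in pL, L and Z SC and -13.4 for the difference) are no measured folds. The ratio of Tardbp in control Z SC to SG, 3.74, became 5.04 with free RNA subtracted. The cause of these changes was not tested. Leaving out 1 library turned the direction of no called value of Tardbp or Taf15. No composition factors and the test of pL, L and Z SC apart were chosen after seeing the data. The 95% intervals set what depth and the number of mice could show. In SG of the TDP-43 cKO that of Tia1, which had the fewest UMIs of the other 6 genes, ran from -0.30 to 0.35.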
